A study of Mus musculus with 6 samples.

Results

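The genes described here encode the hypoxia-inducible factors (HIFs) and the proteins that couple them to oxygen. They are 10 genes, chosen by symbol, of the 34745 genes in the deposited tables, and each symbol was found in 1 row. They comprise the alpha subunits *Hif1a*, *Epas1* and *Hif3a*, their shared partner *Arnt*, the prolyl hydroxylases *Egln1*, *Egln2* and *Egln3*, the asparaginyl hydroxylase *Hif1an*, the ubiquitin ligase subunit *Vhl* and the HIF target *Vegfa*. Bulk RNA-seq was done on hematopoietic stem cells (HSCs) of adult C57BL/6 mice, sorted from bone marrow as CD150+CD34-CD48- LSK cells (lineage-negative, Sca1-positive, cKit-positive). The 3 WT samples came from mice with floxed *Med23* alleles and no Cre (Med23floxp/flowp in the labels), and the 3 KO samples from mice with the same alleles and the *Mx1-cre* transgene. The *Mx1* promoter responds to interferon, and deletion was induced in the study with poly(I:C), an interferon inducer, so that Cre acts in HSCs and in other interferon-responsive cells. For its blood counts the paper gave poly(I:C) to both WT and KO mice. Its RNA-seq methods do not say whether the WT mice sequenced received it. How many mice each sample holds is not given in the sources used here, and the p-values below measure only the spread between these samples, which may be technical in part.

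HIFs are transcription factors made of an unstable alpha subunit and the stable beta subunit ARNT. When oxygen is present, the EGLN enzymes hydroxylate prolines of the alpha subunit, VHL binds the hydroxylated protein and marks it for destruction, and HIF1AN blocks its activation domain. When oxygen is scarce the alpha subunit is stable and turns on genes of glycolysis, survival and blood vessel growth. HSCs reside in marrow with low oxygen, and HIF1A is known for its part in keeping them quiescent. Because much of this control acts on the protein, RNA levels describe the supply of the components and not HIF activity.

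The 6 libraries held between 3537269 and 8131344 counts. All 12 HSC marker genes read here, among them *Kit* and *Procr*, passed the filter on low counts. Of these, 1 was higher and 3 were lower in every KO library, against 12.4% of all genes without overlap in either direction. None passed an adjusted p of 0.05 with edgeR, and 4 had an unadjusted p under 0.05, against 5.71% of all genes. Their median log2 fold change of KO over WT was -0.22, against -0.0054 over all genes. Of 10 genes listed for the negative side of the sort, *Il7r*, *Cd3e*, *Cd8a* and *Ly6g* were at 0 counts in every library. *Cd34* had a mean of 2034 counts although the gate was negative for the CD34 protein. The list also holds *Ptprc*, the gene of CD45, which HSCs carry, and *Flt3*, which the gate named above does not use. Only 4 of the 10 passed the filter. Together the 10 summed to between 548.3 and 723.6 CPM in WT and between 735.8 and 1007 CPM in KO. That sum does not measure cells that the sort should have removed. Values of single libraries are given here in the order of replicates 1, 2 and 3. *Med23* itself had 47.6, 70.8 and 24.1 CPM (counts relative to the library total, TMM-normalised) across WT against 31.6, 29.8 and 36.8 CPM across KO, so the library labelled WT replicate 3 was below every KO library. The 14 skeletal muscle genes summed to between 152.9 and 386.3 CPM in WT and between 8.51 and 23.1 CPM in KO, and 11 of the 12 that were tested were lower in every KO library. At an adjusted p under 0.05 with edgeR, 3 of the 12 were lower, out of 7 such genes among all 12513 tested. The 11 genes listed for mature granulocytes summed to 210.2 CPM in KO replicate 3 and to at most 13.3 CPM in any other library. Most of that sum was *Mpo*, with 867 counts, and *Elane*, with 115, which granulocyte progenitors also express, while *Ltf*, *Mmp8* and *Ly6g* were at 0 counts in every library and only 2 of the 11 passed the filter. The summed levels of macrophage, erythroid, endothelial, marrow stroma and lymphoid genes overlapped between the groups. The part of these genes, and of *Med23*, in the results for the HIF genes was not tested.

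The oxygen-sensing enzymes include both genes whose KO and WT libraries did not overlap, and their promoters are shown first. Each runs from 250 bases before to 50 bases after the start site in the RefSeq table for GRCm38.p6, is written 5′ to 3′ on the strand of the gene, and has in capitals every match to ACGTG or GCGTG on either strand (CACGT or CACGC on the other strand), the core to which HIF binds.
*Egln1*, chr8:124949205-124949504, minus strand: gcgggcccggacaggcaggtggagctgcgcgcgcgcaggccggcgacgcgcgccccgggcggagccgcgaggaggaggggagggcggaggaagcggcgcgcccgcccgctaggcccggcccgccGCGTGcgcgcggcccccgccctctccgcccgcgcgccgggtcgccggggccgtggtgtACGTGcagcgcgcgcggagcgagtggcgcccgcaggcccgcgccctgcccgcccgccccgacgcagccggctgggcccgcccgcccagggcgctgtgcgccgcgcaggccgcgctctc
*Egln2*, chr7:27166753-27167052, minus strand: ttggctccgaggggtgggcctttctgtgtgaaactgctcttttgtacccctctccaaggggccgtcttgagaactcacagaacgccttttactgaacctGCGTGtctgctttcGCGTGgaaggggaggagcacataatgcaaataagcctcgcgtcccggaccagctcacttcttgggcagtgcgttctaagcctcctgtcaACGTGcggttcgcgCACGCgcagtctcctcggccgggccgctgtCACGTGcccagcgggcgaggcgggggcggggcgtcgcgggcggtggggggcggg
*Egln3*, chr12:54203825-54204124, minus strand: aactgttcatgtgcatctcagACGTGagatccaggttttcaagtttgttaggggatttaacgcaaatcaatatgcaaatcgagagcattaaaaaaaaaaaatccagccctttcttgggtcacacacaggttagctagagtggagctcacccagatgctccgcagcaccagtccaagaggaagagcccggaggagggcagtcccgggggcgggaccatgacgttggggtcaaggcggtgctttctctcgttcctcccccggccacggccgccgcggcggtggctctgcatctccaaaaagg
*Hif1an*, chr19:44562604-44562903, plus strand: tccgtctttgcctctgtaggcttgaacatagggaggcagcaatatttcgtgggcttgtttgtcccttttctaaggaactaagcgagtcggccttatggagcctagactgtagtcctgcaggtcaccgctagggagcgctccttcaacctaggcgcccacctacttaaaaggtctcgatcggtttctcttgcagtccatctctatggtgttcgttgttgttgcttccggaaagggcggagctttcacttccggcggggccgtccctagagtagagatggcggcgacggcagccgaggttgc
The *Egln2* window shown held 6 matches, of which those that begin 4 and 3 bases before the start site (-4 and -3) overlap in CACGTG, which is also an E-box and a site for other factors. A second *Egln2* window, chr7:27165679-27165978, is not shown and held 1 match, at -116. The *Egln1* window held 2 matches, at -126 and -68, and the *Egln3* window 1, at -229. The *Hif1an* window held none of these letters. Such short matches are common, since 43.8% of the 32851 promoters in the table held at least 1, so a match is a description of the sequence only. Of the 10 genes 9 had an entry, with 11 windows in all, and 8 of these windows (72.7%) held a match. Among the HIF target genes listed below, 59 of 79 windows (74.7%) did.

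Per length, *Egln2* was the highest of the 10 genes and *Epas1* the lowest. FPKM, which scales counts to gene length and library total, was used for this because only a value per length allows different genes to be compared. *Egln2* (chromosome 7 from 27158658 to 27166802) stood at 29.0 ± 6.59 FPKM (SD over 6 libraries), above 85.7% of the 12513 tested genes, whose median was 6.72 FPKM. *Egln3*, at 14.8 ± 5.77 FPKM, and *Hif1an*, at 14.8 ± 1.41 FPKM, followed with overlapping ranges. *Hif1a* stood at 11.4 ± 6.14 FPKM, *Vhl* at 7.52 ± 3.78 FPKM and *Egln1* at 5.91 ± 3.08 FPKM. *Hif3a* stood at 4.29 ± 1.11 FPKM and *Arnt* at 3.99 ± 2.02 FPKM.

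*Egln2* was above *Egln3* in 6 of 6 libraries, although their ranges across libraries overlapped. The ranges of neighbours from *Egln3* down to *Arnt* overlapped too, so that neighbours in this stretch did not differ beyond their spread, whereas the range of *Egln2* lay wholly above those of *Hif1an* and all genes after it. *Vegfa*, at 0.465 ± 0.273 FPKM, lay wholly below the range of *Arnt*. *Epas1* was at 0 in 3 of the libraries and at most at 1.18 FPKM. The order depends on the gene lengths behind the deposited FPKM, which were 1.64 times the annotated exon length for *Arnt* and 2.42 times for *Vegfa*. With the exon lengths of GENCODE M21 *Arnt* moved from place 8 to place 6 and *Hif1an* from place 3 to place 2, and *Egln2*, *Vegfa* and *Epas1* kept places 1, 9 and 10.

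**Figure D1:**
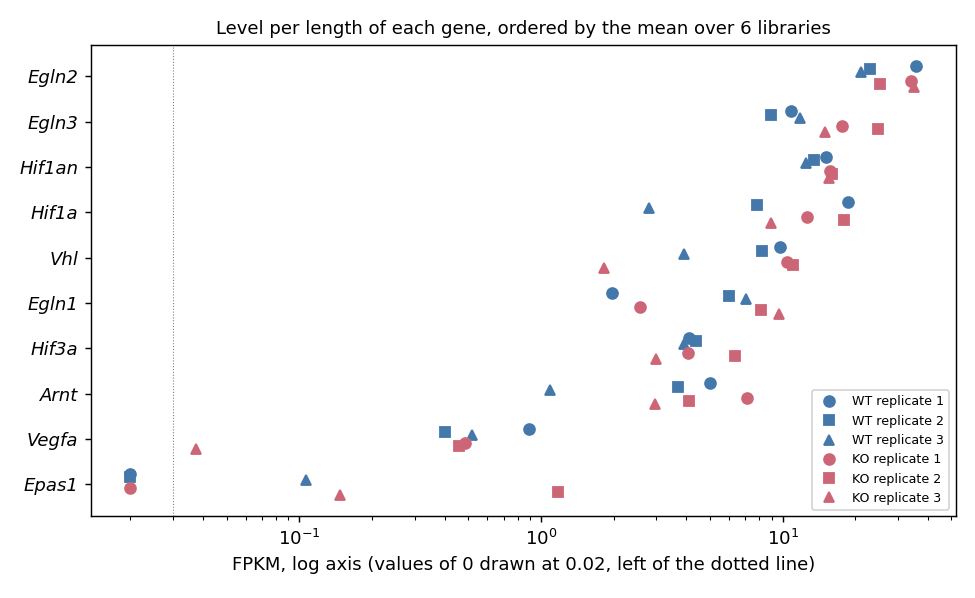
FPKM on a log axis for each of the 10 genes, ordered by the mean over 6 libraries; blue marks are WT and red marks KO, the marker shape gives the replicate number, and values of 0 are drawn at 0.02. *Egln2* lies at the top between 21.2 and 35.7 FPKM, and *Vegfa* and *Epas1* lie apart at the bottom.

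None of the 9 genes that passed the filter differed between KO and WT at an adjusted p under 0.05 with edgeR's quasi-likelihood test, where 0.0719% of all 12513 genes tested did (0.016% higher and 0.0559% lower). At an unadjusted p under 0.05 there was 1, *Egln3*, against 5.71% of all genes in either direction and 2.94% higher. DESeq2, which called 0.984% of the genes it tested, called none of the 10 and limma on FPKM none of those it tested. The estimate was above 0 for 8 of the 9, with 49.5% of all genes above 0, and the median log2 fold change of the 9 was 0.21. The estimates share the same 6 libraries and are not independent. Those of *Hif3a* (0.05) and *Vhl* (0.03) were close to 0. The estimates of *Hif1a*, *Hif3a*, *Egln1* and *Vhl* changed direction under at least 1 alternative. In 2 of the 9, *Egln3* and *Hif1an*, every KO library was higher than every WT library, as in 6.25% of all genes, and in none was every KO library lower, as in 6.15% of all genes.

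**Figure D2:**
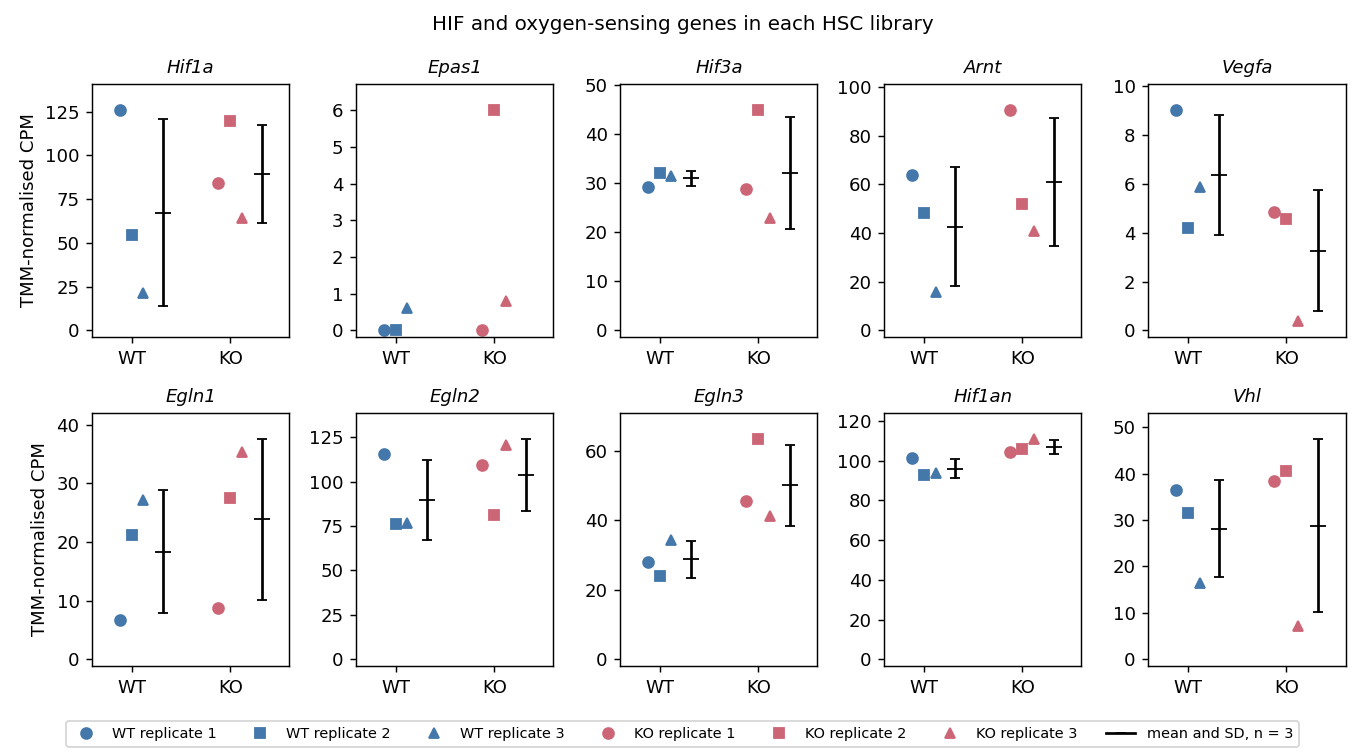
TMM-normalised CPM of each of the 10 genes in the 3 WT (blue) and 3 KO (red) libraries, with the mean and SD in black (not drawn for *Epas1*). The groups are apart for *Egln3* and *Hif1an* and overlap for the others, and *Hif1a*, *Arnt* and *Vhl* are lowest in replicate 3 of both groups.

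Of the alpha subunits, *Hif1a* and *Hif3a* were found in every library and *Epas1* hardly at all. *Hif1a* (chromosome 12 from 73901375 to 73947530), which encodes the broadly expressed alpha subunit, had values of 125.9, 54.3 and 21.3 CPM across WT against 84.5, 119.6 and 64.3 CPM across KO. The highest and the lowest of the 6 libraries were both WT, 5.90-fold apart, and the KO libraries lay between them. The log2 fold change of KO over WT was 0.41 (standard error 0.53, 95% interval from -0.76 to 1.58, edgeR adjusted p = 0.997). Of its exon sequence, 330 bases (5.60%) also belong to *Gm15283* on the opposite strand, which had 19 counts in all, and the use of strand in counting is not given in the sources used here.

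*Hif3a* (chromosome 7 from 17031507 to 17062427) encodes an alpha subunit that can restrain the other alpha subunits. It had values of 29.3, 32.2 and 31.5 CPM across WT, within 1.10-fold of each other, and of 28.8, 45.0 and 22.9 CPM across KO. The KO libraries lay on both sides of the WT libraries, and the log2 fold change was 0.05 (95% interval from -0.80 to 0.91, edgeR adjusted p = 0.997). The coefficient of variation between WT libraries was 4.85% for *Hif3a* and 79.6% for *Hif1a*.

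*Epas1* (chromosome 17 from 86753700 to 86833410), which encodes HIF2A, had 0, 0 and 2 counts in WT and 0, 33 and 4 counts in KO replicates 1 to 3. Of the KO counts, 89.2% came from replicate 2, and KO replicate 1 held none. It was too low for the filter. The ratio of KO to WT was 19.6 for the summed counts, each divided by the summed TMM-normalised library totals of its group. Its exact binomial 95% interval, for the 37 against 2 counts, ran from 5.04 to 167.5. That interval covers counting error only and not the spread between libraries, and an exact two-sided permutation test over the libraries gave p = 0.4. In the edgeR fit without a filter the adjusted p was 0.70.

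*Hif1a* made up 82.0, 64.2 and 41.1% of the summed FPKM of the 3 alpha subunits across WT, and 75.7, 70.4 and 74.0% in KO. *Hif3a* made up most of the rest, with 18.0, 35.8 and 57.3% in WT and 24.3, 24.9 and 24.8% in KO. The KO libraries were close to each other and lay inside the WT range for both genes. The difference in the *Hif1a* share was 10.9 percentage points (standard error 11.9, exact two-sided permutation p = 0.6, n = 3 in each group). It was 0.294 points without WT replicate 3 and 20.7 points without WT replicate 1.

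**Figure D3:**
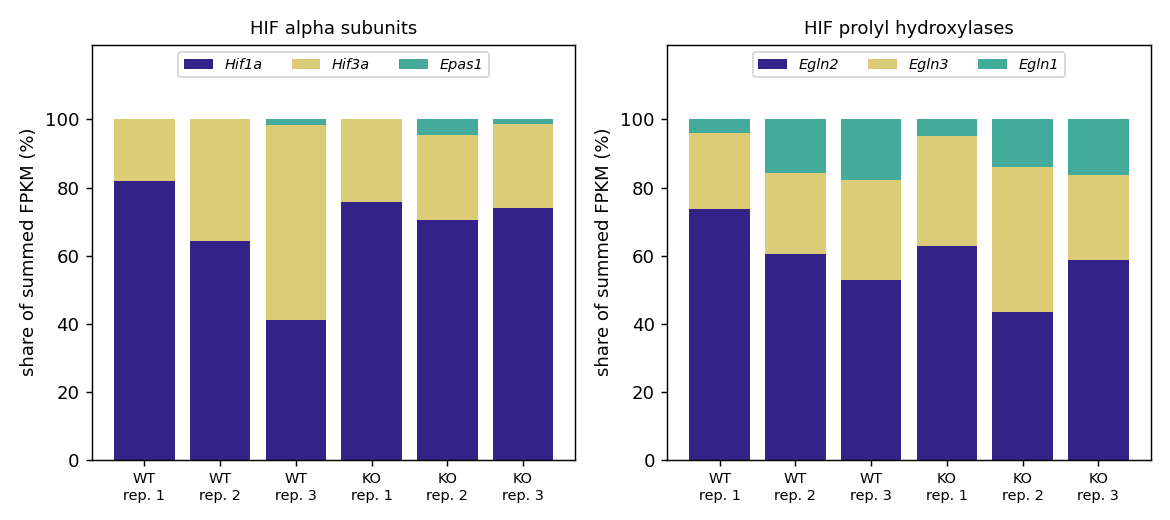
Share of the summed FPKM held by each HIF alpha subunit (left) and each prolyl hydroxylase (right), in percent, for the 6 libraries. *Hif1a* ranges from 41.1 to 82.0% in WT and from 70.4 to 75.7% in KO, and *Egln2* is the largest part of the hydroxylases in every library.

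*Arnt* (chromosome 3 from 95434388 to 95497240), the partner of all alpha subunits, had values of 64.0, 48.4 and 15.8 CPM across WT against 90.6, 51.9 and 40.7 CPM across KO. The KO libraries tended to the upper part of the range but overlapped WT, with a log2 fold change of 0.51 (standard error 0.49, 95% interval from -0.59 to 1.61, edgeR adjusted p = 0.99). With single libraries left out it ranged from 0.11, without KO replicate 1, to 0.91, without WT replicate 1, and was 0.12 without WT replicate 3. The level of *Arnt* followed that of *Hif1a* across the 6 libraries with a Pearson r of 0.85 on the log2 scale, which ranked 456 among 10136 genes.

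The genes whose levels were most like those of *Hif1a* were *Fancc* (r = 0.995), *Tigar* (0.991), *Tinagl1* (0.987), *Arhgef7* (0.985) and *Mut* (0.985), over 6 libraries of 1 study that differ in depth. *Fancc*, a DNA repair gene, had values of 38.5, 17.6 and 8.34 CPM across WT against 30.8, 38.9 and 21.2 CPM across KO. These are the highest of 10136 values from only 6 points and are given as a description. Of the other members, the r with *Hif1a* was 0.58 for *Hif1an*, 0.50 for *Vhl*, 0.48 for *Egln2*, 0.31 for *Egln3*, 0.21 for *Hif3a* and -0.48 for *Egln1*.

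Of the enzymes that mark the alpha subunits, *Egln3* (chromosome 12 from 54178981 to 54203860), the EGLN gene that HIF induces most in many cells, was the member with the smallest p. It had values of 28.1, 23.8 and 34.3 CPM across WT against 45.4, 63.3 and 41.3 CPM across KO. All KO libraries were above all WT libraries, the library labelled WT replicate 3 included, and KO replicate 2 was the highest. Per length the means were 10.53 ± 1.44 FPKM in WT and 19.1 ± 5.07 FPKM in KO (SD, n = 3 in each group), and in CPM the KO mean was 1.74 times the WT mean. The log2 fold change was 0.80 (standard error 0.35, 95% interval from 0.03 to 1.57), with an unadjusted p of 0.043 and an adjusted p of 0.85 from edgeR. The exact two-sided permutation test gave p = 0.1, the smallest value that 3 libraries against 3 allow. With each single library left out the log2 fold change was between 0.60 and 0.95, and over the 15 alternatives run its adjusted p, from edgeR, DESeq2 or limma, was 0.497 or higher.

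*Hif1an* (chromosome 19 from 44562850 to 44576274), which encodes the asparaginyl hydroxylase FIH, had the smallest SD relative to its mean over the 6 libraries. It had values of 101.3, 92.7 and 94.0 CPM across WT against 104.1, 105.9 and 110.9 CPM across KO, with coefficients of variation of 4.85 and 3.27%. The KO libraries were all above the WT libraries, by a small margin between the nearest pair. The log2 fold change was 0.16 (standard error 0.22, 95% interval from -0.34 to 0.65, edgeR adjusted p = 0.997, exact two-sided permutation p = 0.1).

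*Egln2* had values of 115.6, 76.2 and 77.0 CPM across WT against 109.4, 81.0 and 120.4 CPM across KO, with overlapping groups and a log2 fold change of 0.21 (95% interval from -0.41 to 0.83, edgeR adjusted p = 0.997). It ranged from 0.09, without KO replicate 3, to 0.44, without WT replicate 1, and was 0.0020 without replicate 3 of both groups. Its exons share 11 bases with *Cyp2t4* on the opposite strand, which had 45 counts in all. *Egln1* (chromosome 8 from 124908587 to 124949324), which encodes PHD2, the main oxygen sensor in most cells, had values of 6.77, 21.1 and 27.2 CPM across WT against 8.71, 27.5 and 35.4 CPM across KO. The library numbered 1 was the lowest in both groups by a wide margin. The log2 fold change over all libraries was 0.38 (standard error 0.64, edgeR adjusted p = 0.997). Between libraries of the same number KO was higher by 0.34, 0.37 and 0.37 on the log2(CPM + 0.5) scale. These differences were close to each other although the levels of *Egln1* were 4.02-fold apart within WT. No other member had differences as close to each other. They were -0.57, 1.13 and 1.57 for *Hif1a* and 0.08, 0.36 and -1.12 for *Vhl*. With the replicate number as a block the log2 fold change of *Egln1* was 0.37 (standard error 0.41, edgeR adjusted p = 0.86).

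*Egln2* was the largest part of the 3 prolyl hydroxylases per length, with 73.6, 60.5 and 52.9% of their summed FPKM in WT and 62.8, 43.5 and 58.6% in KO. *Egln3* followed with 22.3, 23.6 and 29.4% in WT and 32.5, 42.5 and 25.1% in KO. *Egln1* was below 18% in every library. The *Egln2* share differed by -7.36 percentage points (KO minus WT, standard error 8.41, exact two-sided permutation p = 0.5) and the *Egln3* share by 8.23 points (standard error 5.50, exact two-sided permutation p = 0.2), with overlapping groups for both.

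*Vhl* (chromosome 6 from 113623959 to 113631633), the substrate receptor of the ligase that binds hydroxylated alpha subunits, had values of 36.5, 31.6 and 16.4 CPM across WT against 38.5, 40.6 and 7.28 CPM across KO. Replicate 3 was the lowest library in both groups, by 5.57-fold from the highest in KO, and the log2 fold change was 0.03 (standard error 0.60, edgeR adjusted p = 0.997). Replicate 3 of both groups was also the lowest for *Hif1a* and *Arnt*. Those libraries stood apart in other respects. The sum of 4 Y-linked genes was 1 count for WT replicate 3, 0 for KO replicate 3 and at least 1036 elsewhere. By these genes, replicate 3 of both groups came from female mice and the other libraries held male cells. In WT and KO replicate 3, *Gm26917* and *Gm42418* took 18.1 and 11.96% of the counts, more than in any other library of their group. The part of these differences in the levels of *Vhl*, *Hif1a* and *Arnt* was not tested. Without replicate 3 of both groups, an alternative added after the values were seen, the log2 fold change was 0.20 for *Hif1a*, 0.35 for *Arnt*, 0.23 for *Vhl* and 1.08 for *Egln3*, and edgeR called none of the members.

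*Vegfa* (chromosome 17 from 46016993 to 46032369), which encodes the vessel growth factor VEGFA and is a HIF target in many tissues, had 44, 34 and 19 counts in WT and 24, 25 and 2 counts in KO. In CPM this was 9.02, 4.18 and 5.87 in WT and 4.86, 4.55 and 0.405 in KO, where KO replicate 3 stood below all others with a value under that of 3 counts (0.607 CPM). The log2 fold change was -0.95 (standard error 1.04, 95% interval from -3.25 to 1.36, edgeR adjusted p = 0.997), and without KO replicate 3 it was -0.43. The interval spans both directions, and a difference was not detectable at these counts. In bulk samples a lower level in each cell and fewer cells that express the gene cannot be told apart.

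**Figure D4:**
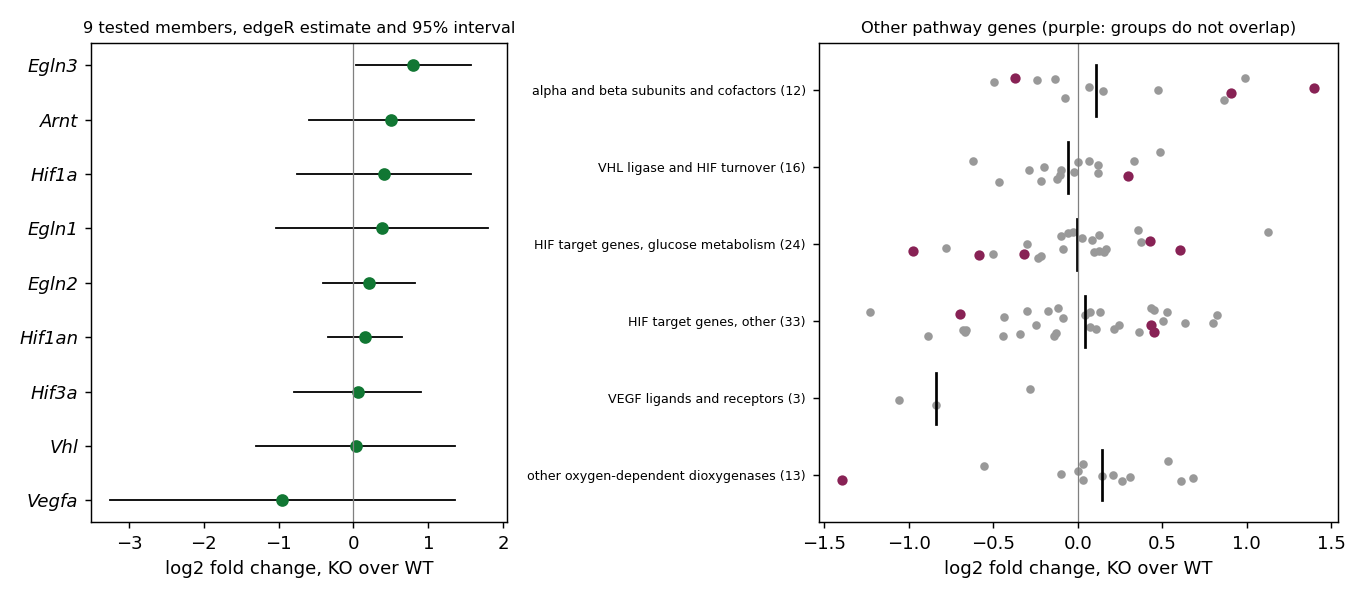
Log2 fold changes of KO over WT from edgeR: left, the 9 members that passed the filter with 95% intervals; right, the tested genes of 6 pathway lists (numbers in brackets), with the list median as a black line and in purple the genes whose groups do not overlap. The interval of *Egln3* alone lies above 0, and the list medians lie near 0 except for the 3 VEGF genes.

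The other genes of the pathway were read from 6 lists of 126 symbols, of which 119 were in the table and 101 passed the filter. None passed an adjusted p of 0.05 in either direction with edgeR, against 0.0719% of all genes, and 8 had an unadjusted p under 0.05, against 5.71% of all genes. DESeq2 called 2 of the 106 it tested, *Ep300* higher and *Jmjd4* lower, against 0.984% of all genes it tested. The estimate was above 0 for 53 and below 0 for 48, and the median log2 fold change was 0.03 against -0.0054 over all genes. In 7 of the 101 every KO library was higher and in 6 every KO library was lower, with no overlap in either direction for 12.4% of all genes tested.

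Among 12 tested partners and cofactors, the coactivator *Ep300*, which HIF recruits, had the clearest separation of those with a mean of at least 50 counts. It had values of 82.8, 112.8 and 98.3 CPM across WT against 162.3, 197.6 and 190.2 CPM across KO. The lowest KO library was above the highest WT library, and the log2 fold change was 0.90 (standard error 0.22), with an adjusted p of 0.36 from edgeR and 0.034 from DESeq2. Under the other settings, with edgeR or limma, its adjusted p was between 0.296 and 0.844. *Arntl*, the ARNT-like clock factor BMAL1, was lower in every KO library, with a log2 fold change of -0.37 (edgeR adjusted p = 0.99).

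*Cited2*, which encodes an inhibitor that competes with HIF for CBP and p300 and was chosen after its values were seen, had values of 125.1, 211.3 and 385.1 CPM across WT against 281.8, 525.4 and 620.4 CPM across KO. The groups overlapped, and the library numbered 1 was the lowest of each group, as for *Egln1*. The log2 fold change was 0.99 (edgeR adjusted p = 0.80), and it ranged from 0.68 without WT replicate 1 to 1.4999 without WT replicate 3. In the list of the VHL ligase and HIF turnover, all 16 genes found passed the filter, 7 had an estimate above 0 and *Commd1* alone did not overlap between groups (log2 fold change 0.30, edgeR adjusted p = 0.99).

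The 24 HIF target genes of glucose metabolism were split evenly, 12 with an estimate above 0, and their median was -0.0022. In 2 every KO library was higher and in 3 lower, against 12.4% of all genes without overlap in either direction. *Pgam1*, a glycolytic mutase, had values of 156.0, 150.7 and 162.6 CPM across WT against 197.5, 226.8 and 288.2 CPM across KO. *Pdk3* was also higher in every KO library, with a log2 fold change of 0.42 against 0.60 for *Pgam1* (edgeR adjusted p = 0.97 and 0.70). The glycolytic enzyme genes *Aldoc* and *Eno1* and the kinase gene *Pdk1*, whose product inhibits pyruvate dehydrogenase, were lower in every KO library. *Aldoc* had values of 55.4, 38.0 and 51.3 CPM across WT against 36.1, 16.02 and 21.4 CPM across KO, a log2 fold change of -0.97 (edgeR adjusted p = 0.80). *Pdk1* had -0.59 and *Eno1* -0.32 (edgeR adjusted p = 0.93 and 0.96).

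Of 33 tested HIF targets with other roles, 17 had an estimate above 0 and the median was 0.04. *Ndrg1*, a stress gene that hypoxia induces in many cells, had values of 125.1, 111.7 and 136.9 CPM across WT against 82.9, 66.1 and 80.9 CPM across KO. All KO libraries were below all WT libraries, with a log2 fold change of -0.70 (standard error 0.24, edgeR adjusted p = 0.66). *Mcl1*, a survival gene, and *P4ha1*, a collagen prolyl hydroxylase, were higher in every KO library, with log2 fold changes of 0.45 and 0.43 (edgeR adjusted p = 0.95 and 0.99). *Adm* and *Nos2* were at 0 counts in every library.

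**Figure D5:**
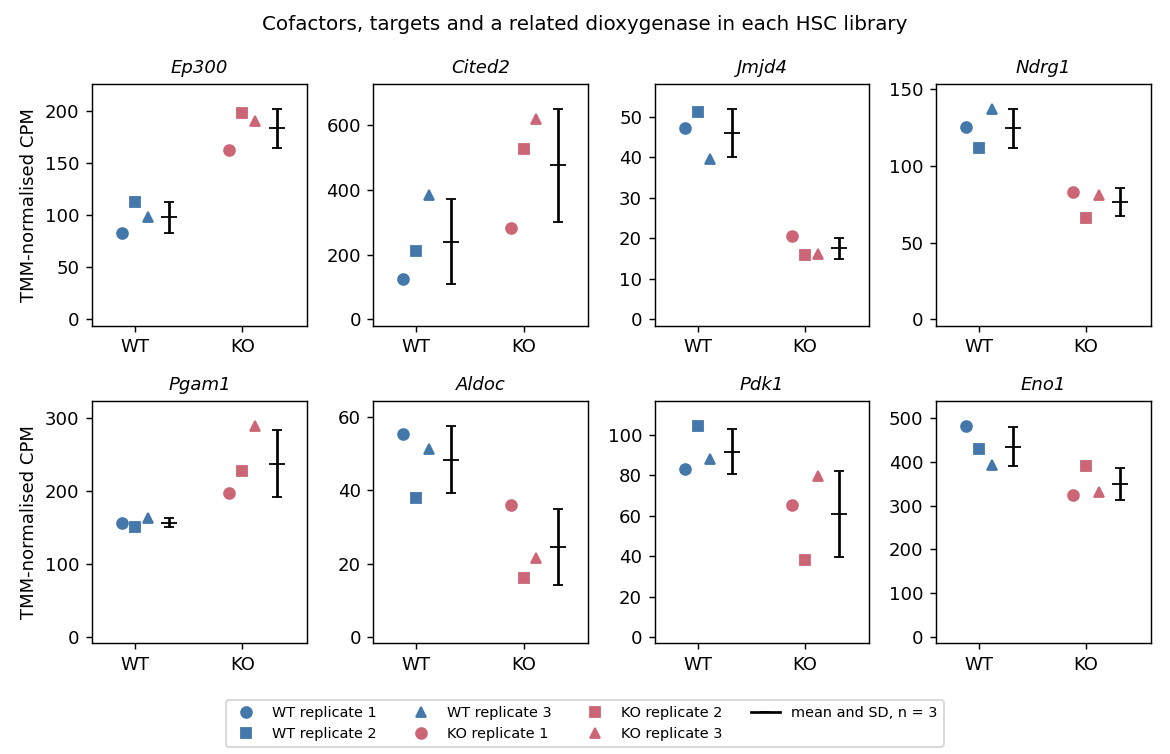
TMM-normalised CPM of 8 other genes of the pathway in each WT (blue) and KO (red) library, with mean and SD in black. All but *Cited2* are apart between the groups; *Ep300* and *Pgam1* are higher and *Jmjd4*, *Ndrg1*, *Aldoc*, *Pdk1* and *Eno1* lower in KO, none past an adjusted p of 0.05 with edgeR.

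Besides *Vegfa*, 9 VEGF ligand and receptor genes were in the table and 3 passed the filter, *Vegfb*, *Vegfc* and *Kdr*, with estimates below 0 and overlapping groups for all 3. *Kdr*, the main VEGF receptor of endothelium, had 14, 88 and 0 counts in WT and 17, 0 and 16 in KO, and *Flt1* had 19 counts in WT replicate 1 and none elsewhere. Among 13 related oxygen-dependent dioxygenases, all of which were tested, *Jmjd4*, a hydroxylase of a translation termination factor, was the gene without overlap. It had values of 47.2, 51.2 and 39.6 CPM across WT against 20.5, 15.8 and 16.2 CPM across KO. KO was lower by a log2 fold change of -1.39 (standard error 0.36), not past the threshold, with an adjusted p of 0.39 from edgeR and 0.021 from DESeq2, and in the other settings its adjusted p with edgeR or limma was between 0.379 and 0.844. As for *Ep300*, the direction was the same with each library left out.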

How the data were processed

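Transcriptomes of 3 WT and 3 KO samples of sorted HSCs were used. Raw gene counts were deposited together with FPKM, which the authors derived from the counts with a single length for each gene and the total of the column (lengths differed by at most 0.0041% between libraries, over 9559 genes with at least 20 counts in each). TopHat, HTSeq and mm10 are named in the submitters' processing notes, and strand setting and annotation are not given in the sources used here. No molecular identifiers are described, so intervals from counts cover counting error only. The members and gene lists were chosen with earlier results of these data known.

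Differential expression was tested on the deposited counts with edgeR 4.0.16 under R 4.3.3 (filterByExpr, TMM, robust quasi-likelihood test, Benjamini-Hochberg adjustment over all 12513 genes at 0.05), and fold changes are KO over WT. The standard error was taken from the log2 fold change and its F value. Single values were compared by exact two-sided permutation tests with SciPy 1.17.1 on log2(CPM + 0.5), or on percentages for shares. On simulated counts for 12069 genes edgeR recovered 92.5% of 93 genes changed by 4 on the log2 scale and 66% of 100 changed by 2, with 6 false calls, and smaller changes were not simulated. A value of 3 counts (0.369 to 0.927 CPM) was the smallest signal treated as detected. Coordinates are from GENCODE M21 (GRCm38), which held 34344 of the 34745 identifiers. Genes named were the 10 members, *Med23*, list genes past the threshold, up to 3 highest and 3 lowest per list whose groups did not overlap and whose mean count reached 50, the 5 genes most like *Hif1a*, and markers. *Cited2*, *Vegfb*, *Vegfc*, *Kdr*, *Flt1*, *Adm* and *Nos2* lay outside this rule and were chosen after their values were seen. Protein sequences were not used here. Alternatives were DESeq2 1.42.0, upper-quartile scaling, other filters, limma 3.58.1 on log2(FPKM + 1) or log2(FPKM + 0.1), the replicate number as a block and each sample left out.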

Additional observations from a re-analysis of the deposited data

How the results depend on the processing

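With edgeR the 10 genes gave no call under any alternative, and DESeq2 and limma gave none either. Of 134 alternative estimates for single members, 123 kept their direction and 11 did not. *Vhl*, at 0.03, became -0.20 with the replicate block, -0.11 with limma on log2(FPKM + 1), filtered or not, and -0.18 on log2(FPKM + 0.1); the cause was not tested. When single samples, or replicate 3 of both groups, were left out, the log2 fold change ranged from -0.30 to 0.49 for *Vhl*, from -0.0056 to 1.23 for *Hif1a*, from -0.26 to 0.28 for *Hif3a* and from -0.012 to 0.78 for *Egln1*. *Hif1a* was at -0.0056 without WT replicate 3 and at 1.23 without WT replicate 1. *Egln1* was at -0.012 without WT replicate 1 or KO replicate 3, and *Hif3a* at -0.26 without KO replicate 2. The *Hif1a* share difference ranged from 0.294 to 20.7 points and that of *Egln2* from -12.1 to -1.64 points. Over all genes the 9 calls became 149 with DESeq2, 5 with the replicate block and 15 with limma on log2(FPKM + 1) at a mean FPKM of at least 1, and between 5 and 11 with each sample left out. DESeq2 moved *Ep300* (0.90) and *Jmjd4* (-1.40) past the threshold. Same-numbered WT and KO libraries correlated in their deviations at 0.163, 0.031 and 0.162, and libraries of different number at between -0.165 and 0.032. The main fit did not pair the samples, and these values do not decide whether the numbers mark a pairing. With the block the log2 fold change was 0.71 for *Hif1a* and 0.63 for *Arnt* (edgeR adjusted p = 0.72 and 0.70), against 0.41 and 0.51 without it. The block changed no call of a member (*Cited2*: 1.06, adjusted p = 0.16 with edgeR and the block). *Epas1* was estimated only without a count filter, and *Vegfa* not where 10 counts in every sample or a mean FPKM of 1 were required. Depth limits what can be said of *Epas1* and *Vegfa*, with 39 and 148 counts in all.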
